A study of Mus musculus with 6 samples.

Results

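The genes described here encode proteins that make or remove reactive oxygen species or regulate their removal: the amine oxidase gene Aoc3, the superoxide dismutase genes Sod1, Sod2 and Sod3, the glutathione peroxidase genes Gpx1 and Gpx3, the catalase gene Cat, the peroxiredoxin gene Prdx2, the thioredoxin-interacting protein gene Txnip and the microsomal glutathione transferase gene Mgst1. These 10 genes, of 18193 on the array, were chosen by name, with earlier results of these data known. All 10 were measured, by 22 of the 34945 probe sets (groups of array probes for a transcript) that the array annotation assigns to a single gene. The study hybridised RNA from 3 Ebf2-positive and 3 Ebf2-negative cell samples to Affymetrix MOE430_2 arrays, 6 in all. Both groups were sorted fresh from the bone marrow of adult, untreated, wild-type C57BL/6 mice as cells lacking CD45, TER119 and CD31, the surface proteins of leukocytes, erythroid cells and endothelial cells. They differed in the sort on Ebf2, a transcription factor of immature mesenchymal cells. RNA came from 1000 or 2000 cells per sample and was amplified in 2 rounds. The labels do not say how Ebf2 was detected or whether replicates came from separate animals. The p-values therefore reflect the spread among these samples alone, and that spread may be technical.

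Superoxide dismutases turn superoxide into hydrogen peroxide, in the cytosol (Sod1), in mitochondria (Sod2) and outside the cell (Sod3). Catalase breaks the peroxide down directly, whereas glutathione peroxidases and peroxiredoxins reduce it with electrons from glutathione or thioredoxin, thiol carriers that NADPH keeps reduced. Aoc3, also known as vascular adhesion protein, is a copper-containing ectoenzyme of smooth muscle, fat and endothelial cells that oxidises primary amines and releases hydrogen peroxide. Red cells, which carry oxygen bound to haem iron, are rich in catalase, Gpx1 and Prdx2.

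Of the 10 genes, 4 were higher in Ebf2-positive cells (Aoc3, Sod3, Mgst1 and Txnip), 4 were lower (Prdx2, Gpx1, Sod2 and Sod1), and 2 (Gpx3 and Cat) did not pass an adjusted p of 0.05. Without Ebf2-negative replicate 1 or 3, 2 were lower in place of 4, and without replicate 3, 3 were higher. Over all genes, 24.4% passed, 10.8% as higher and 13.6% as lower. When dim genes were left out, 5 of the 10 were higher and 4 lower, beside 1958 and 2657 of 10220 genes. The 10 were chosen with earlier results of these data known, so these shares do not test them as a set. The groups did not overlap for 9 of the 10 genes, being higher for 5 and lower for 4, against 43.0% of all genes (21.8% higher and 21.2% lower). The median difference of the 10 genes was 0.73, beside 0.07 over all genes. That median falls in the gap between Cat (-0.55) and Mgst1 (2.0), as 5 of the 10 differences were positive, and describes no single gene. Over the 10220 genes left when dim genes were left out, which include all 10, the median difference was -0.30. All values are log2 RMA signals, an array brightness after normalization, and all differences are Ebf2-positive minus Ebf2-negative with n = 3 arrays a group. Adjusted p-values come from limma, fitted over all 18193 genes with Benjamini-Hochberg adjustment. Signals of different genes come from different probes and cannot be ranked against each other. A difference is set by how a gene compares with the rest of its array. When arrays were centred instead on poly-A spike-in RNA, whose controls were brighter on the Ebf2-positive arrays (12.16 to 12.58 against 8.70 to 10.52), every difference moved by -2.48, and 1.43% of called genes were higher in place of 44.3%. On that scale Gpx3, Mgst1 and Txnip changed sign (-0.37, -0.48 and -0.37), and the call of Sod3 was lost (0.63, adjusted p = 0.418). Cat was called lower (-3.03), and Aoc3, Prdx2, Gpx1, Sod1 and Sod2 kept their direction and their call. The lowest control mean was that of Ebf2-negative replicate 2 (8.70, against 10.31 and 10.52 on replicates 1 and 3). The SE on that scale was 0.75 for each of the 10 genes, so its calls do not rest on a gene's own spread. The spike-in amounts and the cell number behind each array were not available. Sign changes and lost calls with poly-A centring, here and below, are thus no check of any single gene.

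**Figure D1:**
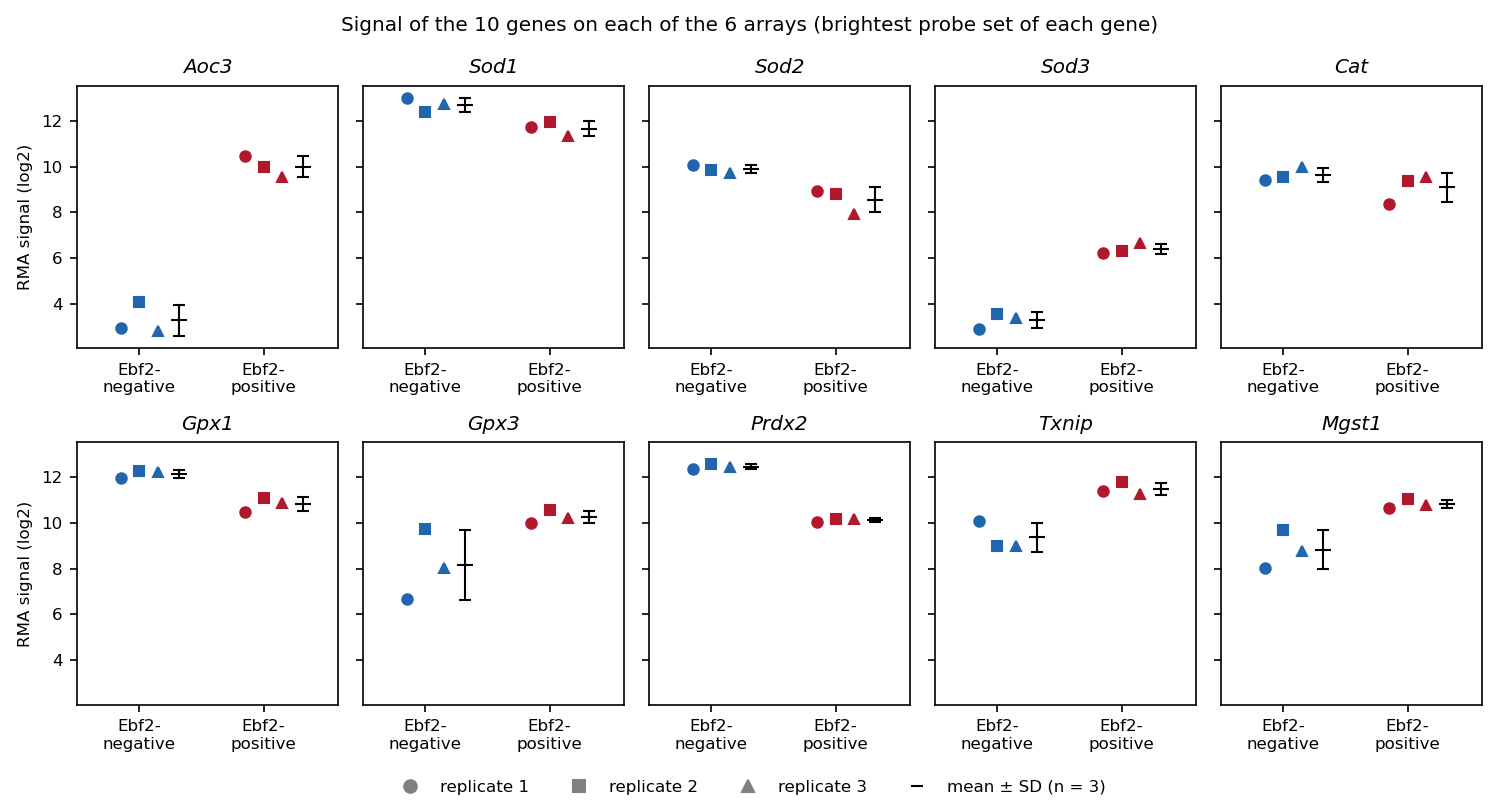
RMA signal (log2) of the 10 genes on each of the 6 arrays, by group, with the mean and SD of 3 arrays beside each group. The groups overlap for Cat alone, and Gpx3 spreads from 6.67 to 9.74 among the Ebf2-negative arrays, while with poly-A centring the differences of Gpx3, Mgst1 and Txnip change sign.

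The arrays were similar in brightness, with medians of 3.69 to 3.80. The quantile normalization within RMA makes arrays alike in this, so it is no check of the input RNA. The sort was visible in Ebf2 itself, which averaged 8.33 ± 0.41 (SD, n = 3) on the Ebf2-positive arrays against 3.66 ± 0.49 on the others (adjusted p = 0.000476). Arrays correlated at 0.919 to 0.924 within the Ebf2-positive group and at 0.968 to 0.977 within the Ebf2-negative group, across probe sets, which are not independent. Actin signal at the 3' end over that at the 5' end is a ratio that rises as RNA is degraded or copied short. For replicates 1, 2 and 3 it was 31.4, 14.0 and 27.3 in the Ebf2-positive group and 24.2, 15.9 and 19.5 in the other. The same ratio for Gapdh was 25.4, 8.45 and 9.99, and 27.6, 11.2 and 10.9. Both ratios were thus highest on replicate 1 of each group. Ptprc, which encodes CD45, was at 6.68, 6.76 and 3.59 in Ebf2-positive and at 8.78, 7.98 and 8.23 in Ebf2-negative cells, although both were sorted as CD45-negative (adjusted p = 0.0698, but 0.0162 without Ebf2-positive replicate 3).

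Promoter windows were searched for 4 short sequences that transcription factors bind. RefSeq windows of build GRCm38.p6, from 250 bases before to 50 after the start, were found for 8 of the 10 genes, all but Aoc3 and Sod3, with 2 for Mgst1. The core of the antioxidant response element, TGACNNNGC, to which the oxidant-sensing factor NRF2 binds, was present on either strand in 2 of these 9 windows, those of Sod1 and Mgst1, and in 12.4% of all 32851 windows. The EBF core CCCNNGGG was present in the window of Cat alone, and in 13.7% of all windows. The E-box CACGTG and the GATA sequence AGATAA were found in 0 of the 9 windows, and in 7.15% and 11.2% of all. The 3 windows with a match are shown, 5′ to 3′ along the gene's strand, because they belong to a gene called lower (Sod1), a gene called higher (Mgst1), and a gene that was not called (Cat). The call of Mgst1 was lost without Ebf2-negative replicate 3 and with poly-A centring, and that of Sod1 in several alternatives given below. Capitals mark the match, which for Sod1 and Mgst1 lies on the opposite strand and begins 56 bases before the start in both, and for Cat begins 36 bases before it. They lie at chr16:90220512-90220811 on the plus strand, chr6:138140277-138140576 on the plus strand and chr2:103485104-103485403 on the minus strand.
Sod1: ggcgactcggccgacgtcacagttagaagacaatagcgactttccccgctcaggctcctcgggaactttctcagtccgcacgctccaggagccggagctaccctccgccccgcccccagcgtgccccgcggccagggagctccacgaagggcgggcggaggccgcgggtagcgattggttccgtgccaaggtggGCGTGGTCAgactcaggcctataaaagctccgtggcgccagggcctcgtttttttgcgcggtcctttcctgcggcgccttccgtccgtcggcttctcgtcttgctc
Mgst1: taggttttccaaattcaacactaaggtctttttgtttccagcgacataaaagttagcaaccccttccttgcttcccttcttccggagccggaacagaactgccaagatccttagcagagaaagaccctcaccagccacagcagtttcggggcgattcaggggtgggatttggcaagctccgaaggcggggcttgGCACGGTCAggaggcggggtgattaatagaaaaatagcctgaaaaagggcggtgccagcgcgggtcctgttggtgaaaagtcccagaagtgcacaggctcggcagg
Cat: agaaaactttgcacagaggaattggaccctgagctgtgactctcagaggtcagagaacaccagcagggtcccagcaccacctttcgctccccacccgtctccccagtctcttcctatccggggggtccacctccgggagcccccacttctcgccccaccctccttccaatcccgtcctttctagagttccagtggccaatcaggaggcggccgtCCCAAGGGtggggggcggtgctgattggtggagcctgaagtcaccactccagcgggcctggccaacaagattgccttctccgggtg
A match in letters is no evidence of binding.

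Aoc3 had the largest difference of the 10 genes. In the order of replicates 1, 2 and 3, kept for all genes, it gave 10.47, 9.96 and 9.55 in Ebf2-positive cells and 2.97, 4.08 and 2.80 in Ebf2-negative cells. Every Ebf2-positive array was bright, and 2 of the 3 Ebf2-negative arrays lay below the median of all probe sets on the array. The difference was 6.72 (SE 0.41, 95% interval 5.72 to 7.71), or 105-fold, with an adjusted p of 0.000354. The low group lies near the bottom of the signal range, so the fold is not exact. Aoc3 had 1 probe set, and it kept its call without any single array (difference 6.47 to 7.11).

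The 3 superoxide dismutase genes did not move together. Sod3, the secreted enzyme that binds to matrix and cell-surface heparan sulfate, was at 6.25, 6.31 and 6.65 in Ebf2-positive and at 2.91, 3.57 and 3.38 in Ebf2-negative cells. All Ebf2-positive arrays stood well above all Ebf2-negative arrays, which were all below the array median. The difference was 3.11 (SE 0.25, 95% interval 2.52 to 3.70), or 8.64-fold (adjusted p = 0.000634, call lost with poly-A centring), a fold that, as for Aoc3, is not exact. A second Sod3 probe set was dim in both groups, with means of 4.34 and 3.77, and its difference of 0.56 was not called among probe sets (adjusted p = 0.164). When the probe sets of a gene were averaged, the difference of Sod3 was 1.84.

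Sod1 and Sod2, the enzymes inside the cell, went the other way. Sod2, the manganese enzyme of mitochondria, was at 8.93, 8.80 and 7.94 in Ebf2-positive and at 10.07, 9.84 and 9.74 in Ebf2-negative cells. The groups did not overlap, and Ebf2-positive replicate 3 was the lowest array. The difference was -1.32 (SE 0.31, 95% interval -2.06 to -0.59), with an adjusted p of 0.023. That call was lost without Ebf2-negative replicate 1, 2 or 3 (adjusted p = 0.0829, 0.0667 and 0.0671), without both arrays numbered 2 (0.0871) and with a further quantile normalization (0.0509). The other Sod2 probe sets differed by -1.60, -1.53 and 0.09, none of them called among probe sets, and the last was dim in both groups.

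Sod1, the copper and zinc enzyme of the cytosol, was bright everywhere, at 11.71, 11.95 and 11.33 in Ebf2-positive and at 12.99, 12.38 and 12.72 in Ebf2-negative cells. The groups were separate but close. The difference was -1.03 (SE 0.26, 95% interval -1.65 to -0.41), or 2.04-fold lower, with an adjusted p of 0.0304. It was not called without Ebf2-positive replicates 1 or 3 (adjusted p = 0.0627 and 0.0707), without Ebf2-negative replicates 1 or 3 (0.101 and 0.103), with a further quantile normalization (0.104), with 75th percentile centring (0.0513), with the mean of its probe sets (-0.57, adjusted p = 0.0827), or with the replicate number as a block (0.0661). Of its 5 probe sets, the brightest was the only one called among probe sets (adjusted p = 0.0415). Its name marks it as able to bind related transcripts, and the next brightest, without that mark, differed by -0.87 (adjusted p = 0.0745 among probe sets, and 0.0582 where it stood for the gene). The 2 dimmest Sod1 probe sets differed by -0.09 and -0.32.

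Among the genes whose products break down hydrogen peroxide, those of the cell interior were lower or not called. Prdx2, the peroxiredoxin of red cells and neurons, was at 10.03, 10.18 and 10.15 in Ebf2-positive and at 12.36, 12.57 and 12.43 in Ebf2-negative cells. Arrays of the same group lay within 0.21 of each other, the closest of the 10 genes. The difference was -2.33 (SE 0.18, 95% interval -2.75 to -1.91), or 5.04-fold lower, with an adjusted p of 0.000536. Its second probe set was also called lower (-1.20, adjusted p = 0.0308 among probe sets), which made Prdx2 the only one of the 7 genes with several probe sets to have more than 1 called.

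Gpx1, the cytosolic and mitochondrial selenium-containing peroxidase, was at 10.47, 11.07 and 10.88 in Ebf2-positive and at 11.95, 12.26 and 12.24 in Ebf2-negative cells. The groups did not overlap. The difference was -1.35 (SE 0.23, 95% interval -1.90 to -0.79), or 2.54-fold lower (adjusted p = 0.00779), and it kept its call without any single array (adjusted p 0.0104 to 0.0398). Cat, the peroxisomal catalase, was at 8.37, 9.36 and 9.53 in Ebf2-positive and at 9.40, 9.53 and 9.98 in Ebf2-negative cells. Ebf2-positive replicate 1 was the lowest, and the groups overlapped. The difference of -0.55 (95% interval -1.41 to 0.31, adjusted p = 0.328) has an interval that spans 0, and it was -0.19 without Ebf2-positive replicate 1. Cat's other probe set had a difference of -0.81, with Ebf2-positive replicate 1 again lowest at 7.25 (adjusted p = 0.211 among probe sets).

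Gpx3, the secreted glutathione peroxidase found in plasma, varied most. It was at 10.01, 10.55 and 10.21 in Ebf2-positive cells and at 6.67, 9.74 and 8.03 in Ebf2-negative cells. The Ebf2-positive arrays agreed closely, and the Ebf2-negative arrays spanned 3.07. The difference of 2.11 (SE 0.73, 95% interval 0.36 to 3.86) did not pass (adjusted p = 0.0845). Without Ebf2-negative replicate 2 it was 2.91 and passed (adjusted p = 0.0123), and without both arrays numbered 2 it was 2.76 (adjusted p = 0.0293). It also passed when dim genes were left out (adjusted p = 0.0373), and with the replicate number as a block (0.0476), and it turned to -0.37 with poly-A centring.

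Mgst1, a membrane-bound enzyme of the endoplasmic reticulum and outer mitochondrial membrane that joins glutathione to reactive compounds and reduces lipid peroxides, was at 10.67, 11.03 and 10.80 in Ebf2-positive and at 8.01, 9.71 and 8.78 in Ebf2-negative cells. The groups did not overlap, and Ebf2-negative replicate 2 was again the highest of its group. The difference was 2.0 (SE 0.43, 95% interval 0.97 to 3.03), or 4.0-fold (adjusted p = 0.0175, but 0.0662 without Ebf2-negative replicate 3, and -0.48 with poly-A centring). A second Mgst1 probe set lay below the array median on all 6 arrays, and its difference of 0.25 was not called, which brought the mean of both probe sets to 1.13.

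Txnip, an arrestin-like protein that binds and inhibits thioredoxin and limits glucose uptake, was at 11.38, 11.79 and 11.27 in Ebf2-positive and at 10.10, 9.01 and 9.01 in Ebf2-negative cells. All Ebf2-positive arrays were above all Ebf2-negative arrays, of which replicate 1 was the highest. The difference was 2.11 (SE 0.35, 95% interval 1.26 to 2.96), or 4.31-fold (adjusted p = 0.00718, or 0.0593 without both arrays numbered 2, and -0.37 with poly-A centring). The second Txnip probe set was 1.51 higher in mean signal but not called (adjusted p = 0.0777 among probe sets). Over all 22 probe sets of the 10 genes, 4 were called higher and 5 lower, or 40.9% in all. Of all 45037 probe sets, 6.39% were called higher and 8.76% lower, or 15.1%.

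**Figure D2:**
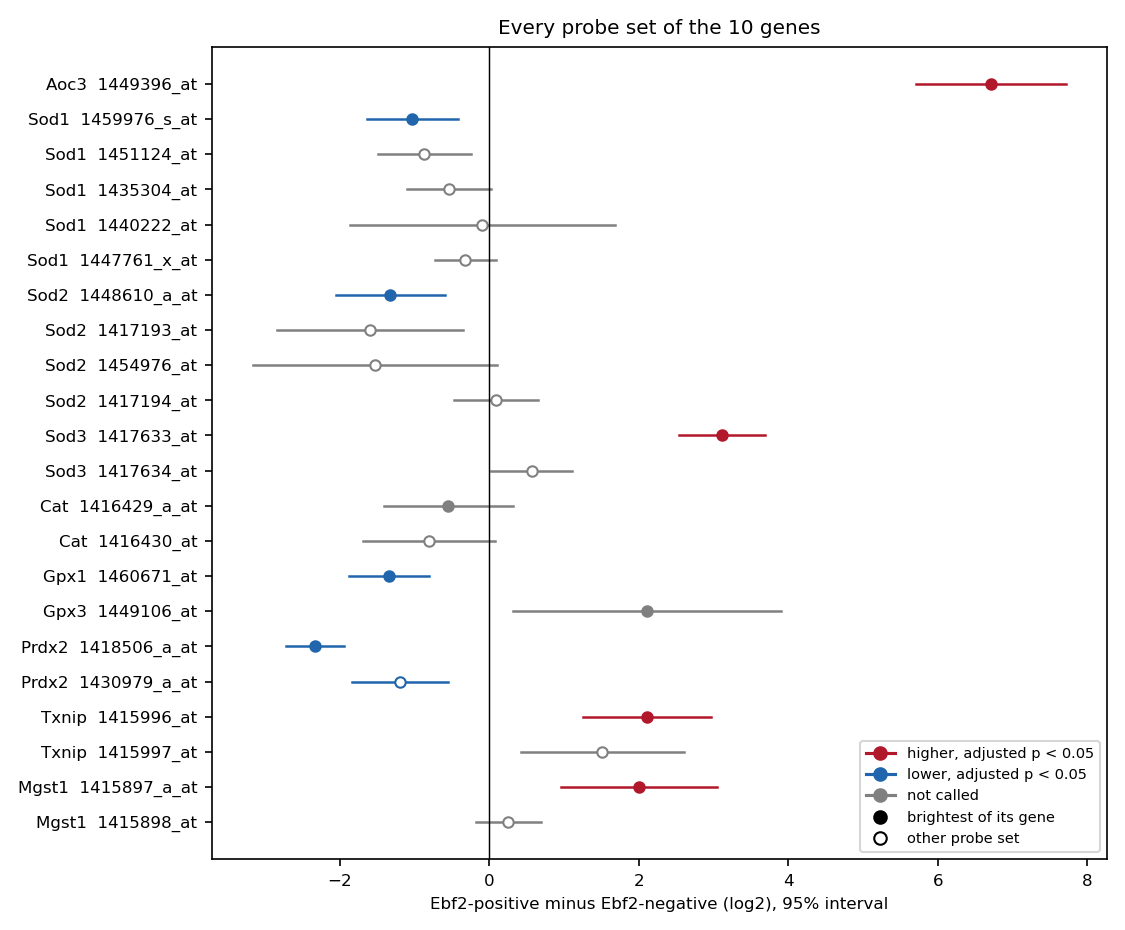
Difference between Ebf2-positive and Ebf2-negative cells (log2) with its 95% interval for each of the 22 probe sets of the 10 genes, filled where the probe set was the brightest of its gene and coloured where it was called. There are 4 called higher and 5 called lower, 2 of them of Prdx2. With poly-A centring all points move by -2.48, which takes the brightest probe sets of Gpx3, Mgst1 and Txnip below 0. The dimmer probe sets with a difference above 0 then fall below it too, those of Mgst1, Txnip, Sod3 (0.56) and Sod2 (0.09).

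Ebf2-negative replicate 2 was often the highest of its group. Of the 5 genes with a positive difference, it was so for 4 (Aoc3, Sod3, Gpx3 and Mgst1), and the exception was Txnip. Among the genes with a negative difference, it was so for Gpx1 and Prdx2 (12.26 and 12.57), and not for Sod1, Sod2 or Cat. The share over all genes was not counted. The same array had the highest mean signal of its group for the 7 fibroblast markers (6.32, against 5.26 and 5.57) and the 8 mural cell markers (5.06, against 4.54 and 4.58). It was also the highest for the neutrophil markers (9.36, against 8.34 and 9.02) and the erythroid markers (9.69, against 9.46 and 9.39). The megakaryocyte, endothelial, adipocyte, macrophage, osteoblast and chondrocyte markers were highest on it too, so this was not particular to stromal markers. It was the lowest for the 4 basophil markers (6.98, against 8.64 and 8.64) and for the B lineage markers. The part of any of these cell types in the values of Gpx3 and Mgst1 was not tested.

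Genes that mark other cell types differed between the groups too. Of 8 erythroid markers, 8 were lower in Ebf2-positive cells, and their summed signal was 323 to 733 there against 9103 to 11065 in Ebf2-negative cells. Rhag, a red cell membrane protein, was at 2.07 ± 0.35 in the former and 9.5 ± 0.21 in the latter. Although the gate was negative for TER119, erythroid RNA was thus bright in the Ebf2-negative group, in which Prdx2, Gpx1, Sod1 and Sod2 were brighter too. Cat, whose enzyme is also abundant in red cells, was not called (-0.55, adjusted p = 0.328). In sorted bulk RNA, fewer cells of a type and less RNA per cell cannot be told apart. The part of erythroid cells in the differences of these genes was not tested. Basophil markers (4 of 4) and megakaryocyte markers (4 of 5) were also lower, with summed signals of 49.7 to 63.4 against 695 to 2104, and of 170 to 224 against 626 to 1178.

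Markers of stromal cells were high where Aoc3 and Sod3 were high. Of 7 fibroblast markers, 7 were higher in Ebf2-positive cells, with a summed signal of 28597 to 35030 against 702 to 1619, among them Dpt (7.53), Col14a1 (7.45) and Mfap5 (6.51), all genes of matrix proteins. Of 8 mural markers, 7 were higher, with a summed signal of 13944 to 16867 against 227 to 347, among them Rgs5 (6.60), a regulator of G-protein signalling in pericytes, and Kcnj8 (6.56), a potassium channel subunit. Of 5 adipocyte markers, 1 was higher and 4 were not called, and of 6 endothelial markers 1 was higher and 5 were not called. Of 6 chondrocyte markers, 3 were higher and 3 not called, with a median of 2.47 and a summed signal of 3590 to 11738 against 552 to 1230. Their mean signal was 9.57, 7.31 and 9.85 on the Ebf2-positive arrays, so replicate 2 was the lowest. Of 4 osteoblast markers 1 was higher and 1 lower, and of 6 macrophage and 4 B lineage markers 0 were called. Neutrophil markers (0 of 7 called) summed to 1869 to 8321 in Ebf2-positive and 5569 to 10545 in Ebf2-negative cells. The part of these cell types in the differences was not tested.

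**Figure D3:**
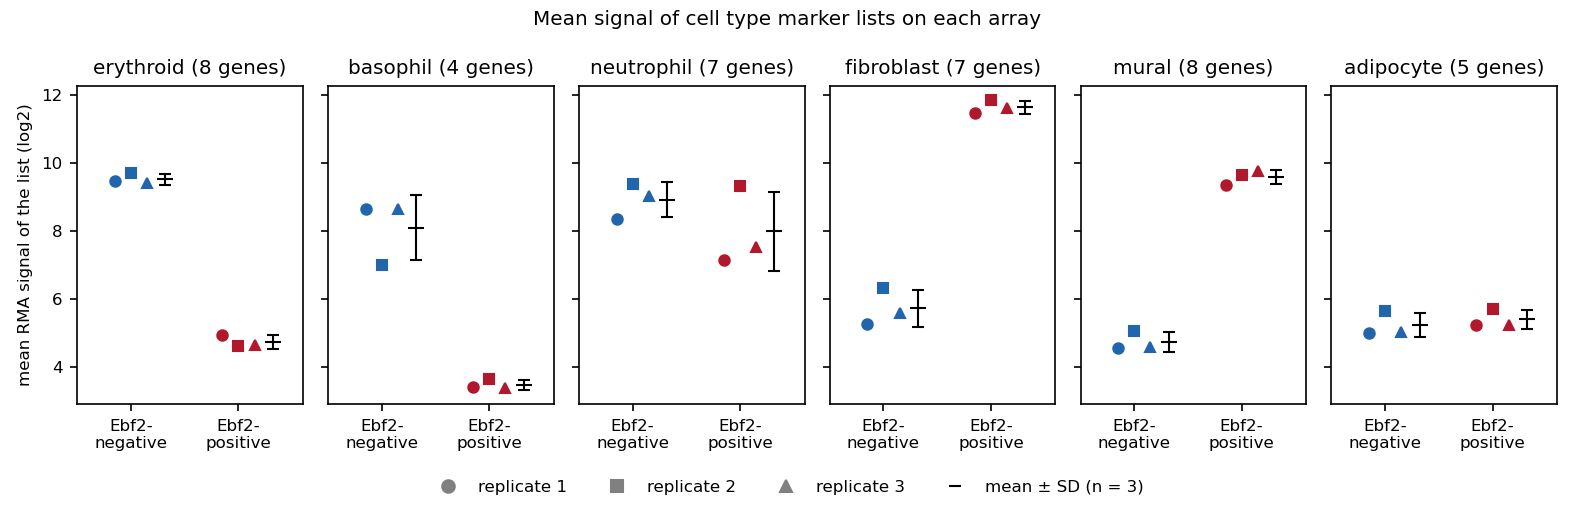
Mean RMA signal (log2) of 6 marker lists on each array, by group, with the mean and SD of 3 arrays. Erythroid and basophil markers are bright in Ebf2-negative cells, fibroblast and mural markers in Ebf2-positive cells, and the neutrophil and adipocyte lists overlap between the groups.

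By profile over the 6 arrays, the genes nearest to Aoc3 were Mfap5, a microfibril protein gene, Tmeff2 and Smoc2, a matricellular protein gene. The root mean square distance, after subtracting each gene's mean, was 0.32, 0.38 and 0.39 on the log2 scale, and their own differences were 6.51, 6.31 and 6.17. Nearest to Prdx2 were Bysl, a ribosome assembly factor, Xrcc6, a DNA end-joining protein, and Casp6, a caspase, at distances of 0.09, 0.09 and 0.11. These 3 genes differed by -2.24, -2.41 and -2.30. With 2 groups of 3 arrays, such a distance mostly records a group difference of like size.

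Other genes of the same pathways were taken from lists of 79 genes, of which 70 were measured. The lists were written with earlier results of these data known, so their shares are no test of the pathways. Of the 70, 15 were higher, 12 lower and 43 not called, so 38.6% were called beside 24.4% of all genes. Their median difference was 0.11 beside 0.07. When dim genes were left out, 15 of 62 were higher and 14 lower, beside 1958 and 2657 of 10220 genes. The median difference over those 10220 genes was -0.30. With poly-A centring 51 of the 70 were lower, and Nox4 was the 1 gene still called higher. Without Ebf2-negative replicate 3, 9 were higher and 9 lower.

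Glutathione synthesis genes were lower in Ebf2-positive cells. Of 8 measured genes of glutathione and NADPH supply, 3 were lower and 2 higher, with a median of -0.72. Gclm and Gclc, the modifier and catalytic subunits of the enzyme that makes the first and rate-limiting step of glutathione synthesis, differed by -3.97 (SE 0.32, adjusted p = 0.000687) and -1.74 (SE 0.23, adjusted p = 0.00305). Gclm was at 5.69, 6.71 and 6.16 in Ebf2-positive and at 10.10, 10.53 and 9.85 in Ebf2-negative cells, a gap wider than that of any of the 10 genes but Aoc3. Gss, the enzyme of the second step, differed by -1.0 (adjusted p = 0.013, but 0.0505 without Ebf2-negative replicate 2, 0.0805 without both arrays numbered 2 and 0.0528 with trend and robust variance). The higher genes were Idh1, a cytosolic NADPH source (2.21, adjusted p = 0.00411), and Ggt5, a cell-surface enzyme that cleaves glutathione conjugates (1.13, adjusted p = 0.0472, and not called without any array but Ebf2-positive replicate 2, up to 0.142, nor with the replicate block, 0.106, or without probe sets that can bind related transcripts, 0.086), which both turned negative with poly-A centring. All Idh1 probe sets are marked as able to bind related transcripts, so leaving those out could not be tried for it. Gss and Ggt5, like Glrx2, Txnrd1, Gsto1, Gstm5 and Mpo, were named after their values were seen.

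Of 11 thioredoxin and glutaredoxin genes, 0 were higher, 3 lower and 8 not called, with a median of -0.54. The 3 encode mitochondrial proteins, as does Glrx2, which was not called (-0.54, adjusted p = 0.289). Txnrd1, the cytosolic thioredoxin reductase, just missed the threshold (-1.46, adjusted p = 0.0573), with groups that did not overlap. Its difference was larger than that of Txn2, which was called. Txnrd2, a thioredoxin reductase, was at 5.88, 6.06 and 5.32 in Ebf2-positive and at 9.10, 9.31 and 9.23 in Ebf2-negative cells, 11.0-fold lower (-3.46, SE 0.24, adjusted p = 0.000471). Glrx5, a glutaredoxin of iron-sulfur cluster assembly that haem synthesis needs, differed by -2.30 (adjusted p = 0.00214). Txn2, the thioredoxin itself, differed by -1.01 (adjusted p = 0.0218), a call lost without Ebf2-negative replicate 1, 2 or 3 (up to 0.0801), without both arrays numbered 2 (-0.76, adjusted p = 0.132), with a further quantile normalization (-0.79, adjusted p = 0.0733) and with the replicate block (0.0584). Prdx3, the mitochondrial peroxiredoxin, was the lower gene of 3 measured in its list (-2.08, adjusted p = 0.00587), and 1 was higher. That gene was Srxn1, which repairs over-oxidised peroxiredoxins (1.22, adjusted p = 0.0271). Srxn1 lost its call without Ebf2-positive replicate 3 or any of the Ebf2-negative arrays (up to 0.0844), without both arrays numbered 2 (0.105) and with the mean of its probe sets (0.47, adjusted p = 0.117). It fell to 0.01 without probe sets that can bind related transcripts, and turned to -1.26 with poly-A centring.

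Among 5 other glutathione peroxidase genes, 2 were higher and 0 lower, with a median of -0.02. Both act in the endoplasmic reticulum, where proteins fold: Gpx7 (2.60, SE 0.40, adjusted p = 0.00532) and Gpx8 (2.42, SE 0.41, adjusted p = 0.00757, and -0.057 with poly-A centring). Gpx7 was at 7.58, 8.89 and 8.06 in Ebf2-positive and at 5.07, 5.87 and 5.80 in Ebf2-negative cells, so the groups did not overlap.

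Glutathione transferase genes moved both ways, 3 of 14 higher and 2 lower, with a median of 0.49. Gstm1, a cytosolic enzyme of the mu class, was at 9.96, 10.56 and 10.41 in Ebf2-positive and at 5.74, 7.70 and 6.46 in Ebf2-negative cells (3.68, SE 0.50, adjusted p = 0.00359). Ebf2-negative replicate 2 was the highest of its group, as for Mgst1. Gstm2 (3.55) and Gstt1 (3.13) were higher too, and Gsto1 (-2.81) and Gstm5 (-1.54), an omega and a mu class enzyme, were lower. Of 7 genes of the NRF2 pathway, which switches on many of these enzymes under oxidant stress, 0 were higher and 1 lower, with a median of 0.20. The lower gene was Nqo1, a quinone reductase (3.19 ± 0.08 against 5.24 ± 0.38, adjusted p = 0.00224).

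The other amine oxidases that were called were lysyl oxidases, which cross-link collagen and elastin and release hydrogen peroxide. Of 8 genes, 3 were higher and 0 lower, with a median of 0.79. Loxl1 was at 11.16, 11.49 and 10.96 in Ebf2-positive and at 7.26, 9.20 and 7.34 in Ebf2-negative cells (3.27, SE 0.54, adjusted p = 0.00671). Loxl3 (2.32) and Loxl4 (1.55) followed. Both turned negative with poly-A centring, and both lost their call without single Ebf2-negative arrays, Loxl3 without replicate 1 or 3 (adjusted p up to 0.0639) and Loxl4 without replicate 2 or 3 (up to 0.0628). The mean of its probe sets also left Loxl4 not called (0.62, adjusted p = 0.117).

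Of 7 genes of oxidant-producing enzymes, 3 were higher and 1 lower, with a median of 1.35. Nox4, an NADPH oxidase that releases hydrogen peroxide, was at 7.69, 7.40 and 6.2 in Ebf2-positive and at 2.30, 2.56 and 2.10 in Ebf2-negative cells. Its difference was 4.78 (SE 0.41, adjusted p = 0.000756), or 27.4-fold, a fold that is not exact because all Ebf2-negative arrays lay below the array median. The mean of its probe sets differed by 2.98. Ncf1, a subunit of the phagocyte oxidase, differed by -1.80 (adjusted p = 0.0314), and Xdh, which oxidises purines, by 1.85 (adjusted p = 0.0471). Mpo, the myeloperoxidase of neutrophil granules, had a mean of 11.26 ± 0.11 on the Ebf2-positive arrays, against 9.85 ± 0.53 (1.42, adjusted p = 0.0157, but 0.0643 without Ebf2-negative replicate 3), although 0 of 7 neutrophil markers were called. The call of Xdh was lost without any array but Ebf2-negative replicate 2 (up to 0.136), and that of Ncf1 without Ebf2-positive replicate 3 or any Ebf2-negative array (up to 0.108) and with the replicate block (0.0525). Xdh was also not called with median centring (0.0536) or array weights (0.0701). Xdh and Mpo turned negative with poly-A centring.

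The copper that Aoc3, Sod1 and Sod3 need enters the cell and reaches secreted enzymes through transporters. Of 4 genes of copper supply, 1 was higher and 1 lower, with a median of -0.38. Atp7a, the pump that loads copper into secreted enzymes, was at 7.51, 7.54 and 7.95 in Ebf2-positive and at 6.14, 5.64 and 6.16 in Ebf2-negative cells (1.69, SE 0.24, adjusted p = 0.00413, and -0.79 with poly-A centring). Slc31a1, the copper importer of the cell surface, differed by -1.38 (adjusted p = 0.0295), and its call was lost without Ebf2-positive replicate 2 or any Ebf2-negative array (up to 0.109) or both arrays numbered 2 (0.11). Of 3 metallothionein genes, which encode metal-binding proteins, 0 were called, and Mt1 was at 8.64 ± 0.35 and 9.55 ± 0.54 (adjusted p = 0.101).

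**Figure D4:**
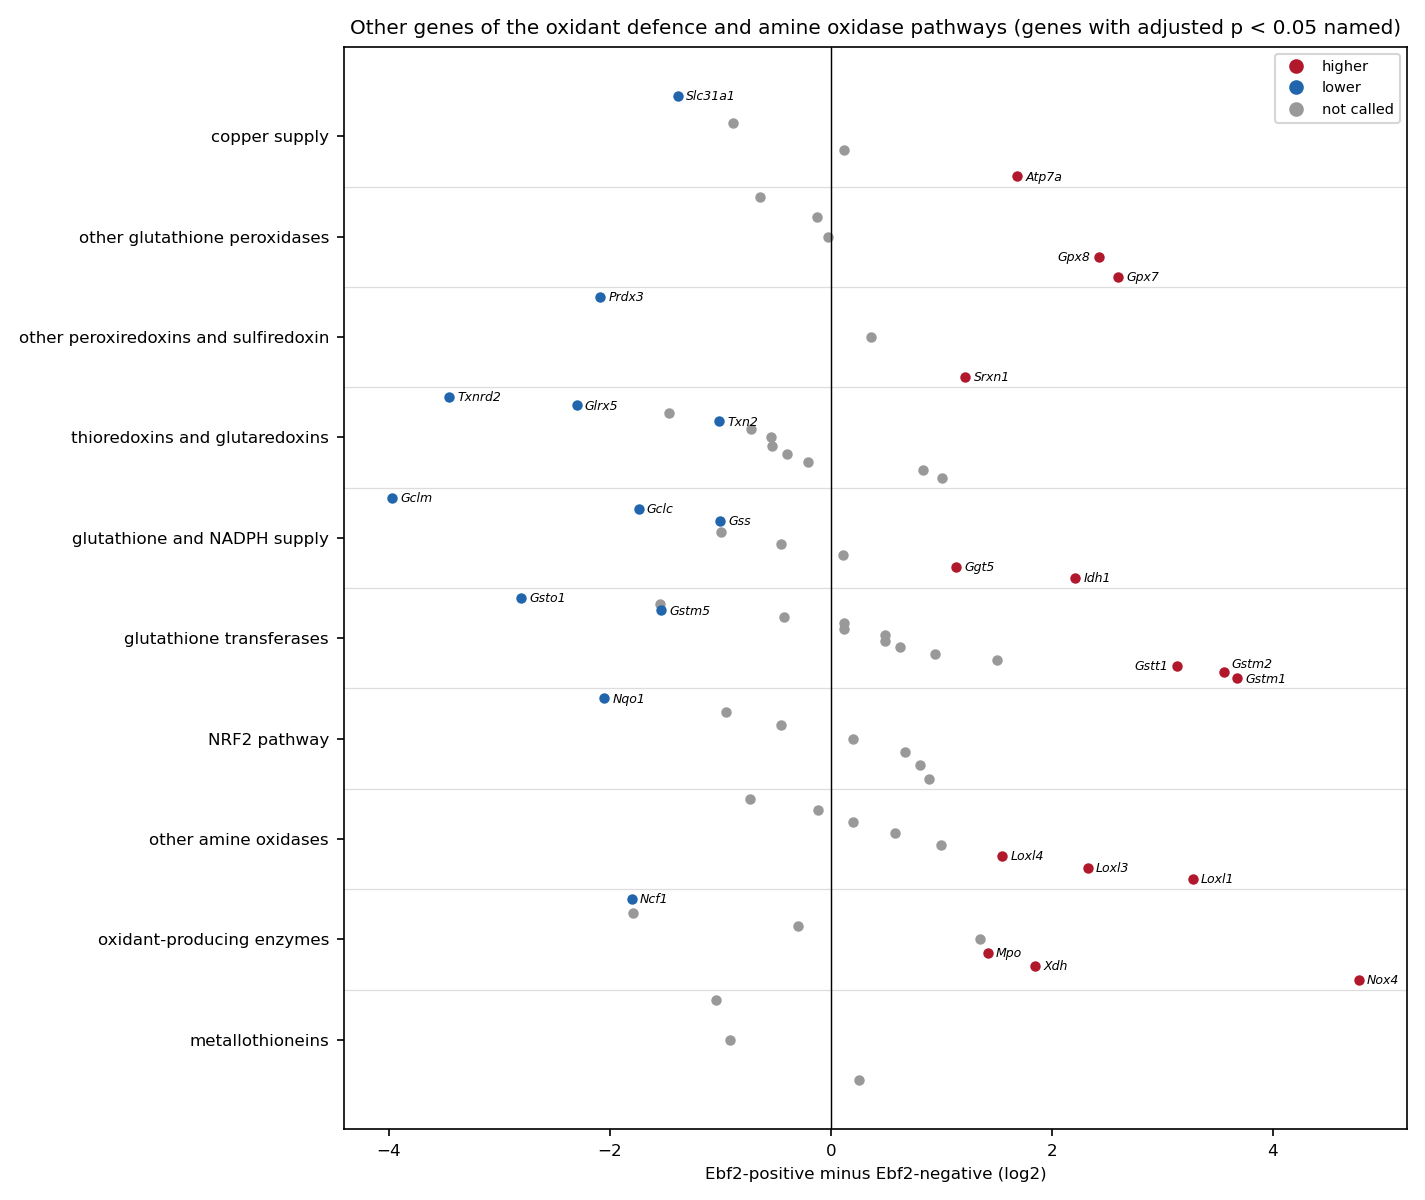
Difference between Ebf2-positive and Ebf2-negative cells (log2) of the 70 measured genes of 10 pathway lists, each point a gene, with the 15 called higher and 12 called lower named. Txnrd2 and Gclm lie farthest to the left and Nox4 farthest to the right, and with poly-A centring all points move by -2.48.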

How the data were processed

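RNA of 3 Ebf2-positive and 3 Ebf2-negative samples was measured on Affymetrix MOE430_2 arrays. The deposited intensity values were made by the authors with RMA (background correction, quantile normalization between arrays and a summary per probe set), per the series design text and the submitters' processing notes, with the software version not given in the sources used here. They run from 2.19 to 20569 over non-control probe sets, a linear scale, and log2 was taken. Quantile normalization hides differences in RNA per cell, and amplification adds spread to dim genes.

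The table has 45101 probe sets, 64 of them controls left out of tests. The array's annotation names 1 gene for 34945, several for 932 and none for 9160. Entrez identifiers of 34741 were found in RefSeq's table for GRCm38.p6, which changed 0 symbols. A gene was represented by its probe set of highest mean (a choice for 9010 of 18193 genes), and all probe sets were also tested singly. The comparison used lmFit and eBayes of limma 3.58.1 (R 4.3.3), two-sided at a threshold of 0.05, and was tested on simulated data. Figures used matplotlib 3.10.9.

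The 10 genes and all lists were chosen with earlier results of these data known. Named genes were the 10, up to 3 called genes of each pathway list by size of difference (the brightest where none was called), the 3 genes nearest to the members with the largest differences each way, and sort and cell type markers. The alternatives were other scalings, a filter on dim genes, other handling of probe sets, other variance models, the replicate number as a block, and leaving out arrays. With 3 arrays a group, their number limits how precise any value is.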

Additional observations from a re-analysis of the deposited data

How the results depend on the processing

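Over 17 alternatives for each of the 10 genes, 145 values kept direction and side of the threshold, 17 lost the call, 5 gained one and 3 changed sign. Aoc3, Gpx1 and Prdx2 kept their call in all 17. Of the 10 genes, 4 were called higher and 4 lower. Leaving out each array in turn gave 3 to 5 higher and 2 to 4 lower, and a further quantile normalization gave 2 lower. With poly-A centring, in which the 10 genes shared the same SE, 1 of the 10 was higher. Among 70 pathway genes, leaving out arrays gave 9 to 16 higher and 8 to 15 lower, in place of 15 and 12, and poly-A centring gave 1 and 51. Over all genes, leaving out arrays gave 1294 to 1877 higher and 1396 to 2471 lower, in place of 1961 and 2469, leaving out both arrays numbered 2 gave 1642 lower, and poly-A centring gave 227 and 15596. The cause of these changes was not tested. Signs that changed with poly-A centring were those of Gpx3 (-0.37), Mgst1 (-0.48), Txnip (-0.37), Atp7a (-0.79), Gpx8 (-0.057), Srxn1 (-1.26), Idh1 (-0.27), Loxl3 (-0.16), Loxl4 (-0.93), Xdh (-0.63), Mpo (-1.06), Ggt5 (-1.35) and Pecam1 (-1.92). Mt1, not called (-0.91), was at 0.054 as the mean of its probe sets and 1.02 without those that can bind related transcripts. Averaging a gene's probe sets brought Txnrd2 to -2.20 and Nox4 to 2.98, and leaving out those that can bind related transcripts brought Gclc to -1.14 and Gsto1 to -1.61, all still called. Centring on the 75th percentile moved the median of all genes by 0.12.

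The replicate numbers do not pair the samples by any label. Same-numbered arrays deviated from their group means with correlations of 0.05, 0.11 and 0.03, and each array correlated best with its own number, a hint from the data and not from the design. With the replicate block, 5 of the 10 genes were called higher and 3 lower, and 1884 and 2335 of all genes. Among the 10, the block changed the calls of Sod1 and Gpx3 alone.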

Other observations

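Some pathway genes that were not called had 1 or 2 arrays far from the rest, and are named here after their values were seen. Cybb, the catalytic subunit of the phagocyte oxidase, was at 7.82 on Ebf2-positive replicate 2 and at 2.41 and 3.15 on replicates 1 and 3, against 5.65 to 6.83 on the Ebf2-negative arrays. The neutrophil markers were also highest on that Ebf2-positive array, with a mean of 9.31 against 7.13 and 7.52. Gstk1, a mitochondrial and peroxisomal glutathione transferase, was at 4.58 on Ebf2-positive replicate 1 and at 7.55 and 7.08 on replicates 2 and 3, against 4.52 to 5.30 on the Ebf2-negative arrays. Maob, a monoamine oxidase of the mitochondrial membrane, was at 3.93 on Ebf2-positive replicate 1 and at 3.52 on Ebf2-negative replicate 3, and between 6.12 and 7.15 on the other 4 arrays.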
